A study of Mus musculus with 18 samples.

Results

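The comparison of IGF2BP1-induced tumors with normal adrenal gland covered 7 tumor libraries (TI) and 3 adrenal gland libraries (AG) of the 18 small RNA libraries of the series, and 726 of 1966 deposited mature miRNAs. A miRNA was included when it reached at least 1 CPM (counts per 1000000 reads of the scaled library total) in at least 3 of the 18 libraries, without regard to group. AG libraries came from adrenal glands of mice labelled CRE -, that is without the Cre recombinase. TI libraries came from mice carrying an LSL-IGF2BP1-IRES-iRFP transgene at the Rosa26 locus, which is released by Cre under the Dbh promoter (Dbh-iCRE) in cells of the sympatho-adrenal lineage. All lines were backcrossed to C57Bl6/N, and the transgene carries no native 3′UTR of IGF2BP1. By the labels, 6 TI samples were homozygous (IGF2BP1 +/+, CRE +) and 1 was heterozygous (IGF2BP1 +/-, CRE +), and 1 of the 7 was a tumor in the adrenal gland. The other 8 libraries (TIM) were tumors of CRE + mice with both IGF2BP1 and a MYCN transgene, and are given only beside TI values. The data columns name the group and not the mouse, so the heterozygous tumor cannot be picked out. Libraries are numbered here in column order, and the ages of the mice were not used here.

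A miRNA is cut from a hairpin precursor whose arms give the 5p and 3p products, and it directs Argonaute proteins to mRNAs mainly by its seed, bases 2 to 8. The adrenal gland holds a steroid-producing cortex and a medulla of neuroendocrine chromaffin cells, with vessels, stroma and blood cells. Neuroblastoma arises from the sympatho-adrenal lineage that also gives the medulla. IGF2BP1 is an RNA-binding protein of the embryo that stabilizes mRNAs, many of which are let-7 targets.

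The miRNAs whose change or family the results below turn on are shown with the seed in capitals, as RNA from 5′ to 3′. Sequences and positions are those of RefSeq on GRCm38.p6, the assembly of the authors' mm10 build, which matched 630 of the 726 miRNAs tested. The first lines are miRNAs that were higher in the tumors.
miR-344f-3p: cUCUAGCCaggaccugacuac
miR-344b-3p: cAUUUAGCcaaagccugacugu
miR-344d-3p: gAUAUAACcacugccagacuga
miR-323-3p: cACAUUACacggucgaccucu
miR-370-3p: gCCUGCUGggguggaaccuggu
miR-376a-3p: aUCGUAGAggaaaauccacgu
miR-376b-3p: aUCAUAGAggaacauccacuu
miR-3099-3p: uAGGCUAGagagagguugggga
miR-218-5p: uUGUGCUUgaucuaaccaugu
miR-9-5p: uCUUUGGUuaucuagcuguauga
miR-741-3p: uGAGAGAUgccauucuauguaga
miR-470-5p: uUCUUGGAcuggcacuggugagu
The next lines are miRNAs that were lower, with miR-10a and miR-10b, and miR-99a and miR-100, sharing a seed.
miR-196a-1-3p: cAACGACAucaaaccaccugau
miR-10a-5p: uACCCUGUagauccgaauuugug
miR-10b-5p: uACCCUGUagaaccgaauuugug
miR-378c: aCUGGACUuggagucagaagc
miR-378d: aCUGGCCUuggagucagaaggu
miR-204-5p: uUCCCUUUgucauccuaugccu
miR-365-3p: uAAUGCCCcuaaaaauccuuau
miR-193a-5p: uGGGUCUUugcgggcaagauga
miR-202-5p: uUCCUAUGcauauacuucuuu
miR-100-5p: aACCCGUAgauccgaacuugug
miR-99a-5p: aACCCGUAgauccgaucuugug
miR-126a-3p: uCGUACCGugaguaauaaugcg
The last lines are miRNAs with a common seed that moved in opposite directions (miR-148a against miR-152, miR-384 against miR-30) or of which 1 fell and 1 did not pass the test (the let-7 pair).
miR-148a-3p: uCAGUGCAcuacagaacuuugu
miR-152-3p: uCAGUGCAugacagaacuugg
miR-384-5p: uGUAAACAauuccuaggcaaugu
miR-30c-5p: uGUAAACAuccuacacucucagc
miR-30e-5p: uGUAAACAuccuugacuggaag
let-7a-5p: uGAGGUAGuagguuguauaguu
let-7i-5p: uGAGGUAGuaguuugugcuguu

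Of the miRNAs shown as higher, those of the miR-344 family lie on the minus strand of chromosome 7, with miR-344f-3p at chr7:62046183-62046203 and miR-344b-3p at chr7:61790522-61790543 within the lncRNA A230057D06Rik. Despite the common name, miR-344f-3p, miR-344b-3p and miR-344d-3p have 3 different seeds, as do miR-376a-3p and miR-376b-3p, which are neighbours on chromosome 12. miR-3099-3p lies within the span of Usp29 (chr7:6803638-6803659) and miR-370-3p within that of the lncRNA Rian (chr12:109618305-109618326). miR-218-5p is made from hairpins in the spans of Slit2 and Slit3 (chr5:48223966-48223986 and chr11:35616840-35616860), which cannot be told apart from the mature sequence. Of those shown as lower, miR-10a-5p lies within the span of Hoxb3 (chr11:96317186-96317208), miR-10b-5p within those of Hoxd3 and Hoxd4 (chr2:74726074-74726096) and miR-196a-1-3p within the lncRNA Gm51876 (chr11:96265225-96265246). miR-126a-3p lies within Egfl7 (chr2:26591402-26591423), miR-204-5p within Trpm3 (chr19:22750610-22750631) and miR-152-3p within Copz2 (chr11:96850439-96850459).

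In the tumors, 75 of 97 miRNAs tested of the imprinted Dlk1-Dio3 region and 11 of 27 neuron-enriched miRNAs rose. So did the 4 miR-344 miRNAs that reached 1 CPM in every gland. miR-10a, miR-378a, miR-196a-1-3p and most miRNAs tested of liver, endothelium, stroma and leukocytes fell. limma on log2(CPM + 1) with Benjamini-Hochberg adjustment over all 726 miRNAs called 405 of them (55.8%) at an adjusted p under 0.05. Of these, 192 were higher in TI (26.4% of those tested) and 213 were lower (29.3%), and the median log2 fold change over all 726 was -0.01. These shares are the background against which each group below is to be read. A miRNA that met the minimum of 1 CPM only in the group where it is high could hardly fail to differ, so the members that met it in all 3 AG libraries are also counted. Of all miRNAs tested these were 536, of which 119 were higher and 210 lower. The same limit holds for groups that were lower, and 591 of all miRNAs tested met the minimum in at least 3 TI libraries. Changes were large in both directions, since 107 of the higher and 89 of the lower miRNAs moved by more than 2 on the log2 scale. In 337 miRNAs (46.4%) the TI and AG libraries did not overlap, with TI above AG in 160 and below in 177. With library totals taken without miR-148a-3p, 369 miRNAs were called, 59.3% of them were higher, and the median over all miRNAs was 0.34. These totals, here and below, were also not scaled by the TMM factor. Without the TMM factor alone, 42.8% of the calls were higher and the median was -0.15. In the main model, 47.4% of the calls were higher. A log2 fold change below is a difference of group means of log2(CPM + 1), which understates the change of miRNAs with few reads, and all adjusted p-values are those of limma over the 726 miRNAs.

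**Figure D1:**
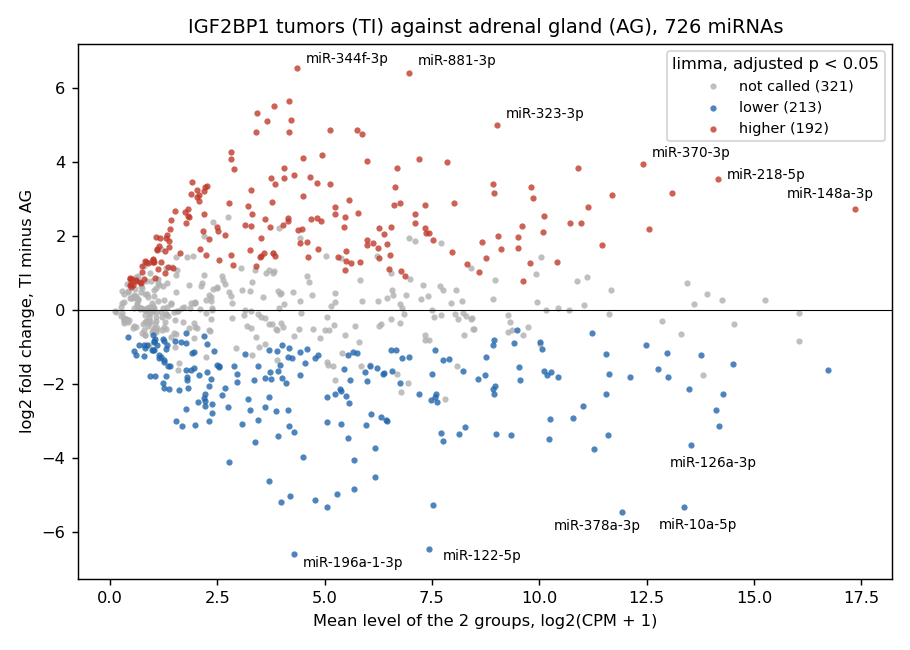
Log2 fold change of TI against AG (vertical axis) by the mean level of both groups in log2(CPM + 1) (horizontal axis), 1 point per miRNA (n = 726). Red points were called higher (192) and blue points lower (213), and both kinds are found from low to high levels.

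Depth and makeup of the libraries differed. AG libraries held 21644743 to 23332704 reads on miRNAs and TI libraries 11802837 to 21268124. The most abundant miRNA took 16.1 ± 4.30% of the reads in AG (SD, n = 3) and 43.0 ± 15.2% in TI (SD, n = 7), a difference with p = 0.0333 and adjusted p = 0.05 in a two-sided exact permutation test, which does not pass the threshold. That miRNA was miR-148a-3p in 6 TI libraries and miR-7a-5p in TI library 5. TI library 5 had the lowest median correlation with the other tumors (Pearson r 0.919 over 726 miRNAs, where the others had 0.937 to 0.957), and TI libraries 4 and 5 correlated least with each other. Values of both are given wherever a result rests on them. The labels do not say that the samples of a group came from separate animals or litters, so p-values measure the spread between these samples.

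The miR-344 family, a group of rodent miRNAs, held 19 deposited miRNAs, of which 7 were too low to be tested (at most 0.0932 CPM in AG and 1.99 CPM in TI). All 12 that were tested were called higher, but 8 of them met the minimum through tumor libraries, and 7 were under 1 CPM in every gland, so that their direction was largely set by that filter. The 4 that met it in AG were also called higher, and in these each TI library exceeded each AG library, which held for 22.0% of all miRNAs tested. miR-344f-3p had 0.324, 1.63 and 1.02 CPM in the 3 AG libraries and 32.6 to 349 CPM (median 204) in the 7 TI libraries. The groups did not overlap, although TI library 5 was far below the other tumors (log2 fold change 6.52, standard error 0.51, adjusted p = 1.67e-08). However, miR-344f-3p is among the 8 that met the minimum through tumor libraries, so the same limit holds for its direction. The most abundant member, miR-344-3p, had 211, 376 and 400.5 CPM in AG and 1787 to 3167 CPM (median 2766) in TI. Here all 7 tumors lay close together, above AG (log2 fold change 3.01, standard error 0.30, adjusted p = 2.73e-07). miR-344b-3p ran from 3.42, 12.3 and 12.2 CPM in AG to 142 to 463 CPM (median 276) in TI, a clear gap between the groups (log2 fold change 4.86, standard error 0.52, adjusted p = 5.35e-07). The 3p and 5p products of miR-344d rose too, by 4.76 for miR-344d-3p and by 4.28 for miR-344d-3-5p. The latter was at most 0.606 CPM in AG, so its direction was largely set by the filter. The smallest change was that of miR-344-5p (0.70), which averaged under 1 CPM in both groups. Members are close in sequence and position, and how reads with several matches were counted is not given in the sources used here, so the split between members is uncertain.

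The Dlk1-Dio3 region of chromosome 12 is imprinted, and its noncoding RNAs, among them the miRNA hosts Rian and Mirg, are made from the maternal chromosome. Of its 108 miRNAs deposited 97 were tested, of which 75 were higher in TI, 0 were lower and 22 were not called, with a median of 1.77. Among the 82 that met the minimum in AG, 64 were higher and 0 lower. Without TI library 6, 1 of the 97 was called lower. These miRNAs were already abundant in AG, where their summed level ran from 60569 to 101537 CPM, against 138831 to 301915 CPM in TI. The sums of the groups did not overlap. The block at chr12:109709060-109747960, with 36 hairpins, gave 53 higher of 62, and the block before it at chr12:109563692-109595388 gave 15 of 24.

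The change was far from even across the region. miR-323-3p had 45.2, 100.2 and 121 CPM in AG and 816 to 4964 CPM (median 3137) in TI, with all tumors above all glands (log2 fold change 4.99, standard error 0.50, adjusted p = 2.73e-07). miR-370-3p, one of the 10 most abundant miRNAs of the tumors, had 867, 1491 and 1531 CPM in AG and 6397 to 35928 CPM (median 27396) in TI. Its groups were also apart (log2 fold change 3.94, standard error 0.50, adjusted p = 3.27e-06). miR-381-3p, another of those 10, had 1902, 3251 and 3734 CPM in AG and 16128 to 34648 CPM (median 26304) in TI, again without overlap (log2 fold change 3.15, standard error 0.35, adjusted p = 8.56e-07). miR-376a-3p, miR-376b-3p, miR-758-3p and miR-369-3p rose by 4.09, 4.06, 4.02 and 3.98. In contrast, miR-127-3p, which was among the 10 most abundant in both groups, had 25014, 39296 and 38879 CPM in AG and 28038 to 81512 CPM (median 32455) in TI. Its groups overlapped (log2 fold change 0.27, standard error 0.44, adjusted p = 0.629), and it was called higher (log2 fold change 0.80) in 1 of 20 alternatives, that with totals taken without miR-148a-3p. miR-411-5p and miR-299a-3p, both from near the start of the larger block, overlapped as well (0.16, adjusted p = 0.748, and -0.13, adjusted p = 0.808). miR-411-5p too was called higher with totals taken without miR-148a-3p (0.69, adjusted p = 0.0468).

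Other imprinted loci gave the same direction in most members tested. Of 7 such miRNAs, 6 were higher and 0 lower, with a median of 1.66, while 1 was called lower with DESeq2 or without TI library 5. miR-296-3p of the Gnas locus had 22.1, 38.5 and 39.7 CPM in AG and 40.3 to 262 CPM (median 182) in TI. The groups did not overlap, but TI library 3 sat just above AG and apart from the other tumors (log2 fold change 2.20, standard error 0.62, adjusted p = 0.00641). miR-335-3p, from an intron of Mest, had 244, 303 and 234 CPM in AG and 489 to 998 CPM (median 613) in TI. All tumors were above the glands (log2 fold change 1.41, standard error 0.50, adjusted p = 0.0223), while the call was lost without AG library 1 or without AG library 3. miR-3099-3p, within Usp29 and on no list, had 2.91, 7.60 and 7.13 CPM in AG and 59.8 to 305 CPM (median 113) in TI. Its groups were well apart (log2 fold change 4.19, standard error 0.52, adjusted p = 3.21e-06). miR-6540-5p, which is on no list either, had 0.231, 0.793 and 0.972 CPM in AG and 2.46 to 259.9 CPM (median 85.8) in TI. TI library 5 was just above the glands and the other tumors far above them (log2 fold change 5.50, standard error 0.90, adjusted p = 5.91e-05). As miR-6540-5p was under 1 CPM in every gland and met the minimum through tumor libraries, its direction was largely set by that filter.

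Neuron-enriched miRNAs rose in part. Of 27 tested, 11 were higher, 1 was lower and 15 were not called, with a median of 0.98, and of the 19 that met the minimum in AG 9 were higher and 1 lower. miR-124-3p, which promotes neuronal differentiation, had 2.17, 4.90 and 7.08 CPM in AG and 34.1 to 493 CPM (median 210.1) in TI. Every tumor was above every gland, with a wide spread among tumors (log2 fold change 4.86, standard error 0.82, adjusted p = 8.54e-05). miR-9-5p, a miRNA of neural progenitors and neurons, had 362, 524 and 582 CPM in AG and 3748 to 13089 CPM (median 6478) in TI. The lowest tumor, TI library 5, was still far above the glands (log2 fold change 3.82, standard error 0.41, adjusted p = 6.28e-07). miR-218-5p, known from motor neurons, had 2535, 6678 and 7540.2 CPM in AG and 39876 to 77478 CPM (median 62169.6) in TI. It was among the 10 most abundant miRNAs of the tumors and did not overlap between the groups (log2 fold change 3.53, standard error 0.35, adjusted p = 2.73e-07). Of the passenger strands that tell the loci apart, miR-218-2-3p (Slit3) rose by 3.24 with an adjusted p = 2.02e-06, and miR-218-1-3p (Slit2) had 0.94 with an adjusted p = 0.0872.

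Other brain miRNAs split. miR-138-5p, miR-137-3p and miR-153-3p rose by 2.25, 1.89 and 1.65, without overlap. miR-128-3p, one of the most abundant miRNAs of the brain, had 644, 629 and 718 CPM in AG and 682 to 2556 CPM (median 1272) in TI. Only 1 tumor lay within the range of the glands, but the test was not passed (log2 fold change 0.98, standard error 0.43, adjusted p = 0.062). The activity-induced miR-132-3p and miR-212-3p overlapped (0.80, adjusted p = 0.414, and 1.41, adjusted p = 0.25). miR-219a-1-3p, from a precursor of the oligodendrocyte miRNA miR-219a, fell (log2 fold change -1.08, standard error 0.35, adjusted p = 0.0139), a call that was lost with totals taken without miR-148a-3p.

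The miRNAs of endocrine cells, by which the labelled tissue can be checked, were abundant in both groups. miR-375-3p, known from pancreatic islets and other neuroendocrine cells, had 8915, 26553 and 30587 CPM in AG and 1427 to 38518 CPM (median 5166) in TI. TI library 5 was above all glands and the other tumors were below them (log2 fold change -1.75, standard error 1.13, adjusted p = 0.197). miR-7a-5p had 35994, 81124 and 65879 CPM in AG and 24302 to 207810.0 CPM (median 49988) in TI, and the range of the tumors enclosed that of the glands (log2 fold change -0.09, standard error 0.65, adjusted p = 0.925). Of 9 sensory and neuroendocrine miRNAs, 1 was higher and 0 were lower (1 lower in a model of AG and TI only). That member was the rare passenger strand miR-7a-1-3p (log2 fold change 1.18, standard error 0.42, adjusted p = 0.0241), whose call was lost without the TMM factor and in each of the 3 fits that left out an AG library.

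**Figure D2:**
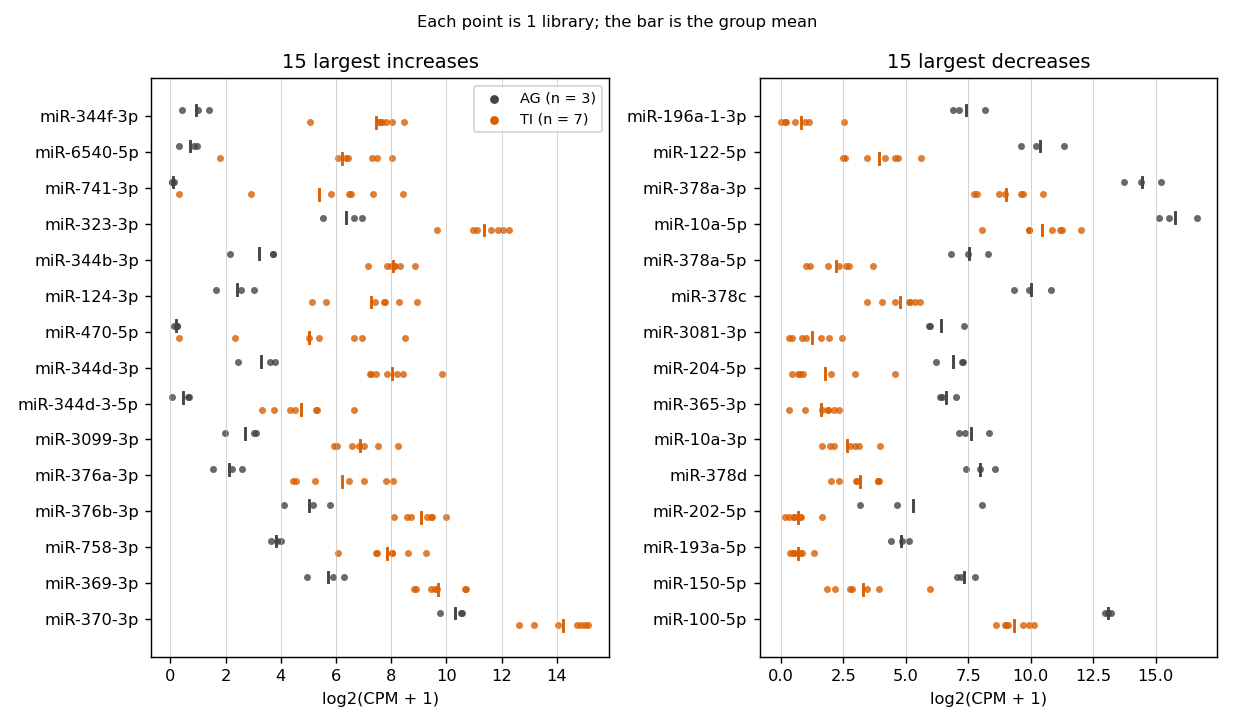
Level of the 15 most increased (left) and the 15 most decreased miRNAs (right) in log2(CPM + 1), for miRNAs that were called, did not overlap and averaged at least 10 CPM in their higher group. Each point is 1 library (grey AG, n = 3, orange TI, n = 7) and each bar a group mean, and no grey point lies among the orange ones of the same miRNA. For miR-741-3p and miR-470-5p the gap rests on a few reads in 1 tumor library.

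A cluster of miRNAs on the X chromosome was high in some tumors and near the level of the glands in others. It was chosen after its values were seen, by grouping hairpins less than 10 kb apart on 1 strand. It runs over chrX:66776757-66839125 (minus strand) with 19 hairpins from miR-743a to miR-465a, and its miRNAs are known mainly from the testis. Of its 34 mature miRNAs deposited, 10 were too low to be tested (0 CPM in AG and at most 1.28 CPM in TI). Of the 24 tested, 23 met the minimum through tumor libraries, and 21 were under 1 CPM in every gland. All 24 were called higher, a count that this filter and the choice of the cluster largely set and that is not read as a result. In 3 of the 24 (miR-741-3p, miR-470-5p and miR-463-3p) the groups did not overlap, and in the other 21 they did. In TI library 4 these 3 stood at 0.241, 0.241 and 0.0604 CPM, where 3 reads were 0.181 CPM. The highest glands had 0.0932, 0.186 and 0.0462 CPM, so these gaps rest on a few reads and are not read as a separation. The summed level of the 34 miRNAs was 8.92, 24.1 and 2.41 CPM in AG. In TI it was 5.37 CPM in library 4, 176 in library 7, 1198 in library 2, 2195 in library 3, 3076 in library 6, 4148 in library 1 and 9248 in library 5. Thus 6 tumors were above the glands, and TI library 4 was within their range.

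The most abundant member, miR-881-3p, had 5.83, 15.8 and 1.48 CPM in AG and 3.74 to 5592 CPM (median 1489.6) in TI. Its log2 fold change of 6.40 had a large standard error of 1.86 (adjusted p = 0.00765). miR-741-3p had 0.0462, 0.0932 and 0.0463 CPM in AG, from 4 reads in all, and 0.241 to 343 CPM (median 87.7) in TI. The groups did not overlap, but the lowest tumor was near the glands, and the log2 fold change of 5.31 (adjusted p = 0.00421) ran from 3.49 with a pseudocount of 5 to 10.8 with edgeR on the recovered reads. miR-470-5p had 0.185, 0.186 and 0.0925 CPM in AG and 0.241 to 365 CPM (median 40.8) in TI, with TI library 4 lowest and TI library 5 highest (log2 fold change 4.82, standard error 1.38, adjusted p = 0.00712). Near-identical members such as miR-465a, miR-465b and miR-465c may share reads. In TIM the summed level ran from 4.09 to 799.6 CPM (median 52.5).

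**Figure D3:**
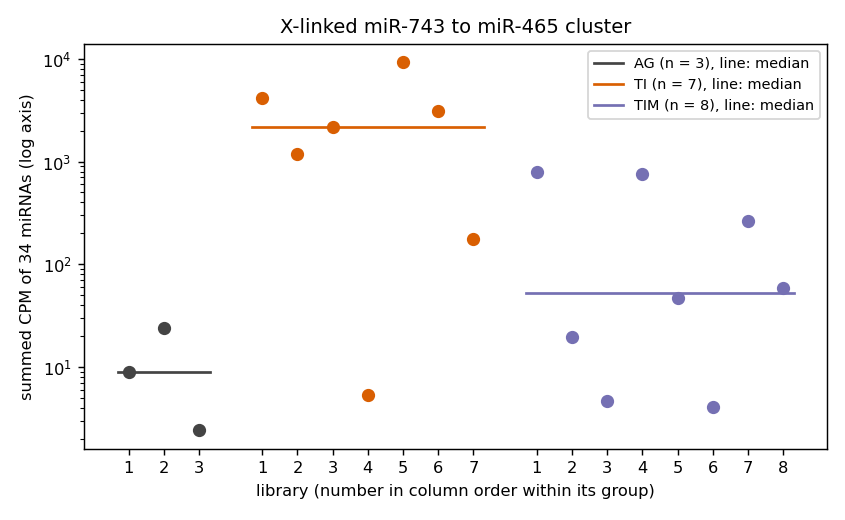
Summed CPM of the 34 deposited miRNAs of the X-linked cluster (vertical log axis) in each of 18 libraries (horizontal axis, numbered in column order within AG, TI and TIM). Lines are group medians (8.92 in AG, 2195 in TI and 52.5 in TIM), and TI library 4 lies at 5.37 among the glands.

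The Hox gene clusters, which set position along the body axis, hold miRNAs that were lower in part. Of 10 tested, 5 were lower, 1 was higher and 4 were not called, with a median of -1.80. Among the 9 that met the minimum in AG, 5 were lower and 0 higher. Of the 10, 9 met it in at least 3 TI libraries. With edgeR, or without AG library 1, 3 of the 10 were lower, and with DESeq2, or without TI library 5, 2 were higher. miR-10a-5p, one of the 10 most abundant miRNAs of the glands, had 101577, 47637 and 35995 CPM in AG and 264 to 4149.9 CPM (median 1838) in TI. No tumor reached a gland (log2 fold change -5.32, standard error 0.66, adjusted p = 2.76e-06), and the other arm, miR-10a-3p, fell likewise by 4.95 on the log2 scale. miR-10b-5p, which has the same seed and was named after its values were seen, had 40549, 22394 and 16642 CPM in AG and 246 to 67849 CPM (median 2066) in TI. TI library 4 lay above all glands and the other 6 below them (log2 fold change -3.12, standard error 1.13, adjusted p = 0.0264), so the groups overlapped.

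The miR-196a products did not move together. miR-196a-1-3p, from the hairpin on chromosome 11, had 287, 138 and 116 CPM in AG and 0 to 4.81 CPM (median 0.483) in TI. It was the largest decrease of all 726 miRNAs, without overlap (log2 fold change -6.59, standard error 0.53, adjusted p = 1.86e-08). It did not meet the minimum in at least 3 TI libraries, so its direction may have been set in part by the filter. miR-196a-2-3p, from the hairpin on chromosome 15, was named after its values were seen and had 0.416, 0.0466 and 0.0925 CPM in AG and 0.107 to 3.96 CPM (median 2.84) in TI. It was higher in 6 of 7 tumors than in any gland (log2 fold change 1.38, standard error 0.35, adjusted p = 0.00306), at levels of a few CPM. It was under 1 CPM in every gland and met the minimum through tumor libraries, so its direction was largely set by that filter. miR-196a-5p, which both hairpins give, had 95.8, 48.3 and 45.2 CPM in AG and 17.7 to 417 CPM (median 341) in TI. TI library 5 was below the glands and the other 6 tumors were above them (log2 fold change 1.85, standard error 1.01, adjusted p = 0.128), and it was called higher with DESeq2 and without TI library 5.

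Of the miR-378 family, of which miR-378a lies in an intron of the metabolic coactivator gene Ppargc1b, 4 members were among the 15 largest decreases. They were named by that rank, and the family as a whole was not counted. miR-378a-3p had 13395, 21522 and 37812 CPM in AG and 211 to 1417 CPM (median 506) in TI. The groups were far apart (log2 fold change -5.43, standard error 0.55, adjusted p = 3.42e-07), and so they were for miR-378a-5p (-5.31), miR-378c (-5.26) and miR-378d (-4.83). miR-378c and miR-378d come from other chromosomes than each other, but their sequences are close, so that part of their reads may be shared. In TIM, miR-378a-3p had 576 to 2535 CPM (median 1568), and its difference from TI was not called (adjusted p = 0.0591), in a comparison that called 5.23% of all miRNAs.

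Further large decreases came from single loci. miR-204-5p, of the melastatin channel gene Trpm3, had 72.1, 149.9 and 154 CPM in AG and 0.363 to 22.4 CPM (median 0.878) in TI. Of the tumors 4 were under 1 CPM, and the highest was still below the glands (log2 fold change -5.14, standard error 1.24, adjusted p = 0.00223). miR-365-3p and miR-193a-5p, from a pair of neighbouring hairpins on chromosome 11 (miR-365-3p also from chromosome 16), fell by 5.02 and 4.10 on the log2 scale, without overlap. The pair miR-193b and miR-365-1 on chromosome 16, with miR-365-3p counted again, gave 4 lower of 4, with a median of -2.57. miR-202-5p, known from the gonads, had 263, 24.3 and 7.91 CPM in AG and 0.121 to 2.18 CPM (median 0.440) in TI. The glands differed widely among themselves, with all of them above the tumors (log2 fold change -4.61, standard error 0.73, adjusted p = 4.62e-05). Like miR-193a-5p, miR-202-5p met the minimum in AG but not in at least 3 TI libraries. The filter may thus have set the direction of both in part. miR-3081-3p, within the span of Boc, fell by 5.17 on the log2 scale, from 158, 61.2 and 60.3 CPM in AG to 0.272 to 4.43 CPM (median 1.03) in TI.

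Liver and gut miRNAs were lower, with 6 lower of 6 tested and a median of -1.73. Of the 6, 4 met the minimum in at least 3 TI libraries, and the direction of the others may have been set in part by that filter. miR-122-5p, the main miRNA of hepatocytes, had 2592, 1169 and 779.8 CPM in AG and 4.68 to 48.1 CPM (median 17.2) in TI. Every tumor was below every gland (log2 fold change -6.44, standard error 0.83, adjusted p = 4.33e-06). miR-192-5p had 4277, 2676 and 2628 CPM in AG and 235 to 1059 CPM (median 399) in TI, also without overlap (log2 fold change -2.95, standard error 0.40, adjusted p = 8.59e-06). miR-215-5p overlapped between the groups (log2 fold change -1.68, standard error 0.65, adjusted p = 0.0351), and its call was lost in 11 of 20 alternatives. The source of miR-122-5p in adrenal gland libraries was not tested.

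miRNAs of vessels, stroma and white blood cells were mostly lower as well. In bulk tissue, fewer cells of a type and less RNA per cell cannot be told apart. All 3 endothelial miRNAs fell, with a median of -3.36 and a summed level of 38531 to 46094 CPM in AG and 1704 to 6736 CPM in TI. Of these 3, 2 met the minimum in at least 3 TI libraries. miR-126a-3p, from an intron of the endothelial gene Egfl7, had 38020.1, 37016 and 44387 CPM in AG and 1621 to 6448 CPM (median 2805) in TI. The tightly grouped glands were all far above the tumors (log2 fold change -3.63, standard error 0.46, adjusted p = 3.27e-06).

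Of 10 smooth muscle and stromal miRNAs, 8 were lower and 2 not called, with a median of -1.73. The count fell to 5 in 7 of the alternatives and to 4 without AG library 1. miR-145a-3p, of smooth muscle, had 341, 361 and 366 CPM in AG and 20.4 to 209 CPM (median 82.3) in TI. No tumor reached the glands (log2 fold change -2.43, standard error 0.66, adjusted p = 0.00503). Its cluster partner miR-143-3p, the most abundant miRNA of the glands, had 120747, 174319 and 208704 CPM in AG and 15743 to 170636 CPM (median 67858) in TI. TI library 5 was within the range of the glands, and the call (log2 fold change -1.61, standard error 0.65, adjusted p = 0.0418) was lost in 11 of 20 alternatives. The call of the fibroblast miRNA miR-214-3p (log2 fold change -1.50, standard error 0.57, adjusted p = 0.0333) was lost in 10 of 20, while miR-214-5p kept its call in all 20 (log2 fold change -2.18, standard error 0.53, adjusted p = 0.00234).

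Of 8 leukocyte miRNAs, 5 were lower and 0 higher, with a median of -1.49. Of these 8, 7 met the minimum in at least 3 TI libraries. With totals taken without miR-148a-3p 3 were lower. miR-150-5p, of mature lymphocytes, had 216, 131 and 146 CPM in AG and 2.63 to 61.8 CPM (median 6.25) in TI. The highest tumor was still below the glands (log2 fold change -4.05, standard error 0.73, adjusted p = 1.54e-04). miR-223-5p, of myeloid cells, fell by 1.96 on the log2 scale (adjusted p = 0.00458), and miR-146a-5p overlapped (-0.16, adjusted p = 0.837). None of 6 erythroid miRNAs was called in limma, edgeR or DESeq2, where limma called 29.3% of all miRNAs lower. The 1 member with an unadjusted p under 0.05, miR-486a-3p (-1.22, adjusted p = 0.0598), was called lower in 5 of 20 alternatives. Their summed level was 908 to 3016 CPM in AG and 464 to 5154 CPM in TI. The 4 striated muscle miRNAs were not called either, in any of the 3 tests and with 0 at an unadjusted p under 0.05, with 183 to 216 CPM in AG and 49.8 to 352 CPM in TI. Of 10 epithelial miRNAs, 1 was lower and 0 were higher, with a median of 0.09 that ran over the alternatives from -0.34 without TI library 3 to 1.11 with DESeq2. DESeq2 called 2 of them higher, and 1 was higher without TI library 5 or without TI library 6. miR-200b-3p had 218, 26.0 and 21.8 CPM in AG and 5.82 to 566 CPM (median 63.4) in TI, a wide overlap (log2 fold change -0.10, standard error 1.36, adjusted p = 0.962). The part of these cell types in the other changes was not tested. Members too low to be tested numbered 1 endothelial, 2 leukocyte, 1 erythroid, 3 liver and gut, 4 epithelial and 13 striated muscle miRNAs, and of the other groups there were 5 or fewer each, apart from those given beside their counts.

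**Figure D4:**
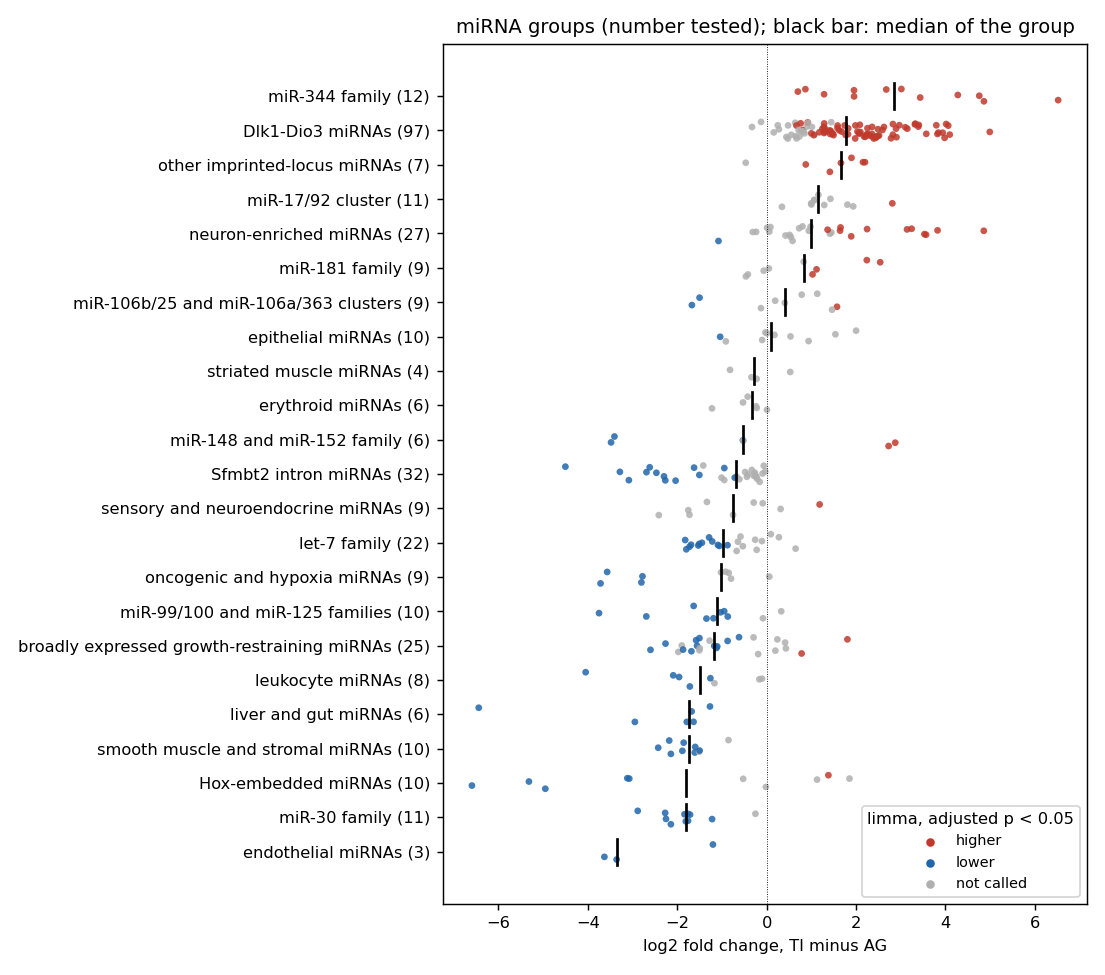
Log2 fold change of TI against AG (horizontal axis) for the miRNAs tested of 23 groups (vertical axis, number tested in parentheses), 1 point per miRNA with the call in color and the group median as a black bar. The medians run from 2.84 for the miR-344 family to -3.36 for endothelial miRNAs. In the miR-344 family 8 of 12 members met the minimum of 1 CPM through tumor libraries.

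The miR-30 and the miR-99/100 and miR-125 families, which are broadly expressed, were mostly lower. Of 11 miR-30 miRNAs, 10 were lower and 0 higher, with a median of -1.81. miR-30c-5p had 7691, 5821 and 5669 CPM in AG and 547 to 2014 CPM (median 1521) in TI. The groups were apart (log2 fold change -2.27, standard error 0.37, adjusted p = 5.54e-05). miR-30b-5p was the exception (-0.25, adjusted p = 0.633). Of 10 miRNAs of the miR-99/100 and miR-125 families, 8 were lower and 0 higher (3 lower with totals taken without miR-148a-3p). miR-100-5p, which targets mTOR, had 9457, 8113 and 8691 CPM in AG and 388 to 1128 CPM (median 542) in TI. All tumors were far below the glands (log2 fold change -3.75, standard error 0.66, adjusted p = 1.27e-04), and in TIM the level was 504 to 8962 CPM (median 1857), a difference from TI with an adjusted p of 0.0509.

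Of 25 broadly expressed miRNAs known to restrain growth, 12 were lower, 2 were higher and 11 not called, with a median of -1.17. With totals taken without miR-148a-3p, or without AG library 1, 5 were lower. miR-26a-5p, which represses the chromatin enzyme Ezh2, had 48715, 37679.6 and 38311 CPM in AG and 6001 to 17740.4 CPM (median 6974) in TI. No tumor reached the glands (log2 fold change -2.26, standard error 0.46, adjusted p = 5.60e-04). miR-29a-3p, a repressor of collagen mRNAs, had 3862, 4365 and 4499 CPM in AG and 199 to 2641 CPM (median 681) in TI. The tumors were widely spread, all below the glands (log2 fold change -2.60, standard error 0.93, adjusted p = 0.0241), and the call was lost with edgeR and in each of the 3 fits that left out an AG library. The members that rose, miR-16-5p (0.78, adjusted p = 0.0111) and miR-15b-5p (1.81, adjusted p = 0.0362), are known to slow the cell cycle, and both calls were lost without the TMM factor and without AG library 2. That of miR-15b-5p was lost in 7 of 20 alternatives.

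Oncogenic and hypoxia miRNAs gave 4 lower and 0 higher of 9, and those 4 were the arms of miR-221 and miR-222, X-linked repressors of Kit and of the cell cycle inhibitor p27. miR-222-3p had 279, 232 and 199 CPM in AG and 7.35 to 51.7 CPM (median 17.0) in TI. The groups did not overlap (log2 fold change -3.72, standard error 0.50, adjusted p = 7.51e-06). miR-21a-5p, common in many tumors, had 121536, 58691 and 68786 CPM in AG and 9898 to 106641 CPM (median 62097) in TI, which overlapped (log2 fold change -0.85, standard error 0.56, adjusted p = 0.211). The hypoxia miRNA miR-210-3p overlapped too (log2 fold change -0.80, standard error 0.52, adjusted p = 0.207). Of other neighbouring hairpins, chosen after their values were seen, the cluster of miR-23a, miR-27a and miR-24-2 gave 5 lower of 5 with a median of -2.91. Within it miR-27a-3p had 3796, 4408 and 5743 CPM in AG and 248 to 1054 CPM (median 648) in TI, a large gap (log2 fold change -2.91, standard error 0.60, adjusted p = 5.58e-04). Its paralog miR-27b-3p, from chromosome 13, stood at 28527, 24638 and 26789 CPM in AG and 13493 to 33847 CPM (median 20449.7) in TI and overlapped (log2 fold change -0.37, standard error 0.37, adjusted p = 0.414).

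Most seeds shared by called miRNAs moved in 1 direction, and a few were split. The 630 miRNAs with a RefSeq sequence gave 524 seeds, of which 32 were shared by at least 2 called miRNAs. In 11 of these all called members were higher, in 18 all were lower, and 3 were split. The seed of miR-148a was the most abundant split one. miR-148a-3p, a repressor of DNA methyltransferase 1, had 74849.6, 42330.5 and 52312 CPM in AG and 25964 to 831523 CPM (median 574112) in TI. TI library 5 was below all glands and the other 6 tumors were far above them (log2 fold change 2.73, standard error 0.87, adjusted p = 0.0126), and the adjusted p was 0.0512 without AG library 2, where miR-148a-5p lost its call too, as it did without AG library 3. miR-152-3p had 3192, 3593 and 4067 CPM in AG and 94.9 to 746 CPM (median 445) in TI, with all tumors below the glands (log2 fold change -3.48, standard error 0.59, adjusted p = 9.66e-05). Summed over miR-148a-3p, miR-148b-3p and miR-152-3p, the seed stood at 46690 to 78970 CPM in AG and at 26911 to 832174 CPM in TI.

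The seed of the miR-30 family is also that of the brain miRNA miR-384-5p. miR-384-5p had 8.60, 15.1 and 15.6 CPM in AG and 35.5 to 165 CPM (median 95.4) in TI, all above the glands (log2 fold change 2.77, standard error 0.46, adjusted p = 7.50e-05). miR-30e-5p went the other way, from 8079.9, 4500.3 and 4248 CPM in AG to 721 to 2779.7 CPM (median 1973) in TI (log2 fold change -1.71, standard error 0.39, adjusted p = 0.00131). Summed over miR-384-5p, miR-30e-5p, miR-30a-5p and miR-30c-5p, the level fell from 32811 to 40899 CPM in AG to 5408 to 11207 CPM in TI, without overlap. These 4 are the members with a RefSeq sequence. Other miR-30 miRNAs, such as miR-30d-5p (mean 15066 CPM in AG and 4473 CPM in TI), are not in this sum. The third split seed held miR-15b-5p and miR-16-5p, which were higher, and miR-322-5p, which was lower (log2 fold change -1.87, standard error 0.43, adjusted p = 0.00146).

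Of 22 let-7 family miRNAs tested, both arms counted, 12 were lower and 0 higher, with a median of -0.97. Of the 10 among them with the let-7 seed, 5 were lower and 5 not called. let-7a-5p had 10286, 7383 and 6413 CPM in AG and 1019.6 to 3569.8 CPM (median 2298) in TI, without overlap (log2 fold change -1.80, standard error 0.36, adjusted p = 4.24e-04). let-7i-5p, among the 10 most abundant miRNAs of the tumors, had 17108, 18145 and 17533 CPM in AG and 15605 to 27746 CPM (median 20327) in TI, with 5 tumors above the glands and 1 below them (log2 fold change 0.27, standard error 0.27, adjusted p = 0.411). let-7b-5p overlapped (-0.11, adjusted p = 0.752). The summed level of the seed ran from 90531 to 119460 CPM in AG and from 42503 to 73546 CPM in TI, so the sums did not overlap. The seed of miR-99a, miR-99b and miR-100 fell from 52770 to 65671 CPM to 6606 to 19077 CPM. No embryonic stem cell miRNA (0 of 28 deposited) reached the level to be tested, with sums of 1.12 to 2.59 CPM in AG and 0.277 to 4.36 CPM in TI.

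**Figure D5:**
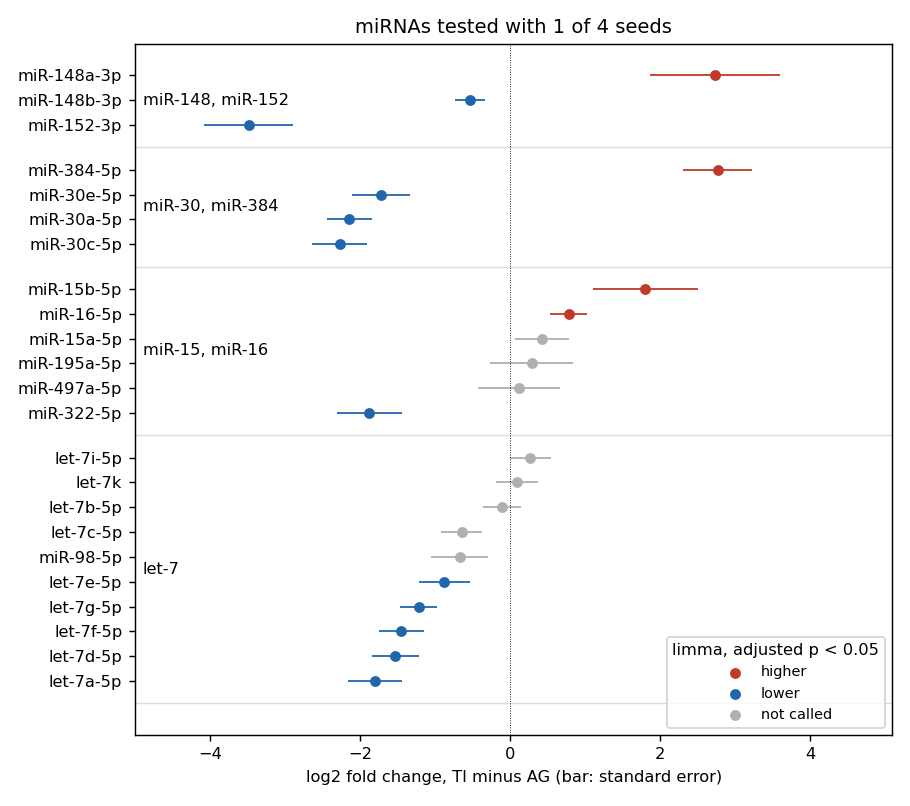
Log2 fold change of TI against AG (horizontal axis, bars are standard errors) for all miRNAs tested whose RefSeq sequence holds 1 of 4 seeds, colored by the call. Within the seeds of miR-148 and miR-152, of miR-30 and miR-384, and of miR-15 and miR-16, members lie on both sides of 0, and let-7 members run from 0.27 for let-7i-5p to -1.80 for let-7a-5p.

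The arms of a hairpin mostly moved together. Of 212 hairpins with both arms tested, both were called in 115, of which 61 had both higher, 54 both lower and 0 opposite. In 49 hairpins 1 arm was called and in 48 none, and the log2 fold changes of both arms correlated with r = 0.83 over hairpins, which share their libraries and a precursor. miR-181d-5p (367, 410.3 and 478 CPM in AG, 1208 to 6232 CPM (median 1979.9) in TI) and miR-181c-3p (41.3, 39.4 and 38.2 CPM in AG, 88.1 to 399.8 CPM (median 220.2) in TI), from 1 cluster, were higher in all tumors (2.54, adjusted p = 3.60e-04, and 2.24, adjusted p = 5.06e-04). miR-181a-5p of the same family was not called (-0.46, adjusted p = 0.336). Of all 9 miR-181 miRNAs tested, 4 were higher and 0 lower, and the number higher was 2 in 6 of 20 alternatives, among them each fit without an AG library.

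The miR-17/92 cluster, a target of MYCN, gave 1 higher and 0 lower of 11, with all 11 fold changes above 0 and a median of 1.16. Of the 11, 7 met the minimum in AG. The number called ran up to 8 over the alternatives and was 5 without TI library 5, 3 without TI library 3, 6 with edgeR and 8 in DESeq2, both run on the recovered reads. miR-18a-5p had 3.65, 1.59 and 1.34 CPM in AG and 6.30 to 44.5 CPM (median 30.4) in TI, with all tumors above the glands (log2 fold change 2.81, standard error 0.86, adjusted p = 0.0102). miR-17-5p had 87.2, 41.3 and 41.1 CPM in AG and 53.7 to 452 CPM (median 355) in TI, where TI libraries 3 and 5 lay within the range of the glands (log2 fold change 1.94, standard error 0.91, adjusted p = 0.0773), and it was called higher in 5 of 20 alternatives, among them edgeR, DESeq2 and the fit without TI library 5. Its paralogous clusters gave 1 higher and 2 lower of 9. miR-106b-3p was higher (log2 fold change 1.57, standard error 0.52, adjusted p = 0.0166), a call that was lost without the TMM factor, without AG library 1 and without AG library 2. The X-linked miR-363-3p and miR-20b-5p were lower at a few CPM (-1.67 and -1.50), and both calls were lost with totals taken without miR-148a-3p and without AG library 1.

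Of 77 deposited miRNAs from an intron of Sfmbt2, 32 were tested, of which 13 were lower and 0 higher, with a median of -0.69. Only 2 of the 32 met the minimum in TI alone, so the direction of the others was in part set by the filter. miR-467a-5p had 128, 162 and 157 CPM in AG and 0.804 to 213 CPM (median 2.90) in TI. TI library 5 was above all glands and the other 6 tumors were far below them (log2 fold change -4.50, standard error 1.09, adjusted p = 0.00222). With edgeR or DESeq2 on the recovered reads 1 of the 32 was called lower, and miR-467a-5p was not. The number lower was 8 with a pseudocount of 5, 19 with a pseudocount of 0.1, 9 without AG library 1 and 18 without TI library 5.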

How the data were processed

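Small RNA libraries of 3 AG, 7 TI and 8 TIM samples were used. According to the labels and the submitters' processing notes, the authors trimmed reads with cutadapt 2.8, aligned them with Bowtie2 2.3.5.1 to mm10, counted them on mature miRNAs with featureCounts 2.0.0 and normalized with edgeR 3.40. How reads with several matches were counted is not given in the sources used here. What the authors deposited for each library is a normalized signal, CPM of the library total times its TMM factor, so that columns need not sum to 1000000. The table also holds log2 fold changes, p-values and FDR that the authors computed between groups with edgeR, which were not used. There were 0 other columns of per-sample values. All values (100%) were whole multiples of 1 read within 0.01 reads, and a miRNA with 3 reads had 0.139 to 0.272 CPM in AG and TI. Such floors cover counting error only.

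The 726 miRNAs (of 1966) that reached 1 CPM in 3 or more of the 18 libraries were tested with limma 3.58.1 in R 4.3.3. A model of all 18 libraries was fitted to log2(CPM + 1), that is with a pseudocount of 1, by lmFit and eBayes with a trend on level, for TI against AG and TIM against TI. Calls used a Benjamini-Hochberg adjusted p under 0.05. Limma and the count models were tested on simulated data first. Library shares were compared by an exact permutation test over 120 arrangements. Alternatives were pseudocounts of 0.1 and 5, CPM without the TMM factor, median ratio scaling, and totals taken without miR-148a-3p, also without the TMM factor. Further alternatives were no filter, at least 10 CPM, only AG and TI in the model, and edgeR 4.0.16 and DESeq2 1.42.0 on the recovered reads. Each AG and TI library was also left out in turn.

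Named were the 15 highest and 15 lowest changes among miRNAs called without overlap and with a mean of at least 10 CPM in the higher group, the 10 most abundant miRNAs per group, and for each of 24 lists the 2 highest and 2 lowest members with a mean of at least 10 CPM. Other miRNAs named, among them the X-linked cluster, miR-384-5p, miR-10b-5p and other family members, were chosen after their values were seen. The members and lists were chosen with earlier results of these data known. Both arms of a listed miRNA count as members. Lists were described by counts and medians, without a test.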

Additional observations from a re-analysis of the deposited data

Results flagged for a closer look

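The TI libraries were checked for an extreme library in each of 116 measures, which were the named miRNAs and the library summaries. In 13 of these, the most extreme library stood apart from the other 6 by more than chance gives in about 1 of 20. For independent measures that would be 5.8. The measures share their libraries and some are neighbouring miRNAs, so 13 against 5.8 is not a test. The gap is given as its share of the range on the log2(CPM + 1) scale. In 9 of the 13 the library was TI library 5. It was low for miR-344f-3p (0.735), miR-6540-5p (0.686), miR-148a-3p (0.753) and miR-196a-5p (0.737), and high for let-7e-3p (0.772) and for the Sfmbt2 miRNAs miR-467e-5p (0.863), miR-669a-5p (0.822), miR-669c-5p (0.813) and miR-467a-5p (0.603). TI library 6 was high for miR-202-5p (0.583) and low for let-7f-5p (0.583). TI library 3 was low for miR-296-3p (0.646), and TI library 2 was high for miR-146a-5p (0.572).

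Of the 113 miRNAs named by rule, 8 differed between TIM and TI in limma, a comparison that called 5.23% of all 726. The count is thus not read as a result about the named miRNAs. Lower in TIM were miR-196a-5p (log2 fold change -4.50, adjusted p = 0.00145), with 17.7 to 417 CPM (median 341) in TI and 0.134 to 70.6 CPM (median 9.78) in TIM, and miR-344d-3-5p (-2.06, adjusted p = 0.0126), with 9.07 to 99.3 CPM (median 21.8) in TI and 1.07 to 11.3 CPM (median 6.10) in TIM. miR-203-3p, a miRNA of epithelia, was also lower in TIM (-1.53, adjusted p = 0.0077), as was miR-16-5p (-0.80, adjusted p = 0.0126), and without the TMM factor both calls were lost (-0.97, adjusted p = 0.0675, and -0.24, adjusted p = 0.404). Higher in TIM were 4 Sfmbt2 miRNAs with limma. They were miR-467a-5p (5.02, adjusted p = 0.00145), miR-669c-5p (4.56, adjusted p = 0.00133), miR-467e-5p (3.46, adjusted p = 0.00145) and miR-669a-5p (3.001, adjusted p = 0.00539). miR-467a-5p had 0.804 to 213 CPM (median 2.90) in TI, with TI library 5 highest, and 61.9 to 822 CPM (median 222) in TIM.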

How the results depend on the processing

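Between 310 and 432 miRNAs were called when 1 library was left out, the lowest count being without AG library 1 and the highest without TI library 5. The other alternatives called 381 (no TMM factor), 369 (totals without miR-148a-3p), 399 (edgeR), 437 (DESeq2), 447 (no filter) and 300 (at least 10 CPM), against 405. No miRNA called with and without an alternative changed its direction, and 268 miRNAs (136 higher, 132 lower) were called in the same direction in all 19 settings that tested the 726 miRNAs. The share of calls that were higher moved from 47.4% to 59.3% with totals taken without miR-148a-3p, where the median of all miRNAs was 0.34. That setting also left out the TMM factor, and without the TMM factor alone the share was 42.8% and the median -0.15. No paired analysis was possible because no column name ties a library to a replicate number in the labels. Of miRNAs that averaged under 10 CPM in their higher group 38.6% were called, against 73.6% of those at 1000 CPM or more, and the part of depth in this was not tested.

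The sign of the log2 fold change turned for miRNAs that were not called. With totals taken without miR-148a-3p it was 0.44 for miR-7a-5p, 0.16 for miR-27b-3p, 0.42 for let-7b-5p, 0.28 for miR-212-5p, 0.40 for miR-299a-3p, 0.27 for miR-30b-5p, 0.44 for miR-99b-3p, 0.0921 for miR-181a-2-3p, 0.0620 for miR-181a-5p, 0.41 for miR-200b-3p, 0.30 for miR-486b-5p, 0.42 for miR-146b-5p and 0.36 for miR-146a-5p. Without the TMM factor it was -0.0531 for miR-411-5p and -0.21 for miR-451a, and with a pseudocount of 5 it was 0.0154 for miR-200b-3p. With edgeR it was 0.32 for miR-7a-5p, 0.72 for miR-200b-3p, 0.0041 for miR-486b-5p, 0.0089 for miR-146b-5p and 0.19 for miR-146a-5p, and with DESeq2 0.33 for miR-7a-5p, 0.76 for miR-200b-3p and 0.22 for miR-146a-5p. With each library left out in turn the range was -0.43 to 0.16 for miR-7a-5p, -0.20 to 0.0775 for let-7b-5p, -0.85 to 0.11 for miR-212-5p, -0.13 to 0.30 for miR-411-5p, -0.17 to 0.0268 for miR-99b-3p, -0.69 to 0.95 for miR-200b-3p, -0.45 to 0.47 for miR-451a, -0.61 to 0.14 for miR-486b-5p, -0.26 to 0.0811 for miR-146b-5p and -0.52 to 0.12 for miR-146a-5p. The share of reads of the most abundant miRNA differed by 23.8 to 31.1 percentage points when 1 library was left out, and passed the threshold without TI library 5 (31.1, adjusted p = 0.0357 in the exact permutation test). That of the 10 most abundant differed by 13.9 to 16.2 points, and passed without TI library 5 (16.2) and with a p from the absolute difference (14.8, adjusted p = 0.025 in the exact permutation test). The cause of these changes was not tested.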
